A study of Mus musculus with 11 samples.

Results

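The collagen chain genes encode the α chains from which every collagen molecule is wound. They were taken as the genes of the count tables whose symbol reads Col, digits, the letter a and digits with nothing after, which gave 44 of 28692 genes. By the structures their proteins form, 11 of the 44 were fibrillar, 6 belonged to the collagen IV network of basement membranes, 3 to other networks, 6 to the beaded filaments of collagen VI, 1 to anchoring fibrils, 9 to the fibril-associated collagens, 4 to the transmembrane collagens, 2 to the multiplexins and 2 to no larger group. Their RNA was measured in single cells of kidneys from male C57Bl/6 mice, with 10x Chromium 3′ libraries that count each captured molecule as 1 UMI. The injured mice were 10 weeks old at surgery, and the study's methods describe the naive controls as matched to them in age, strain and sex. The control group held 5 libraries from naive mice (Ctrl, N1, N2, AN1 and AN2, whose names fall into 3 sets by prefix, which no label calls batches). In UIR, unilateral ischemia-reperfusion, the vessels of the left kidney were clamped for 30 min at 37 °C (3 libraries, here UIR unnumbered, 1 and 2). In UUO, unilateral ureteral obstruction, the left ureter was tied off for good (3 libraries, named in the same way), and injured kidneys of either kind were taken at Day 28 after it. No genetic change is given for any group. The operated mice had isoflurane during surgery and slow-release buprenorphine, a pain reliever, after it, which the naive controls are not described as having, so that injury and these drugs cannot be told apart. The study's methods count 3 mice for each injury and 5 controls in this assay, as many as there are libraries, but no label ties a library to a mouse, and the p-values measure the spread between libraries.

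Collagens give tissue its tensile frame. Fibrillar chains form the banded fibres that accumulate in scars, with collagens I and III as the main ones and collagens V and XI inside the fibre. Collagen IV chains link head to head into the sheet under every epithelium and around every capillary, where Col4a1 and Col4a2 make the general form and Col4a3, Col4a4 and Col4a5 make the form of the glomerular basement membrane. Collagen VI, the fibril-associated collagens and the multiplexins Col15a1 and Col18a1 sit on and between these structures.

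Several chain genes lie side by side in the genome. Sequences from there are shown because members that share a start region were not always called together in the cells below. On chromosome 1 of GRCm38 Col4a4 (ENSMUSG00000067158, 82448423 to 82586849, minus strand) and Col4a3 (ENSMUSG00000079465, 82586921 to 82722059, plus strand) point away from each other across 71 bases, given here on the plus strand and read from the RefSeq assembly GRCm38.p6.
Col4a4 to Col4a3, chr1:82586850-82586920: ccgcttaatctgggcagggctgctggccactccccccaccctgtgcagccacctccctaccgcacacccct

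On chromosome 8 Col4a1 (ENSMUSG00000031502, 11198423 to 11312826, minus strand) and Col4a2 (ENSMUSG00000031503, 11312805 to 11449287, plus strand) overlap by 22 bases at their starts. Col3a1 and Col5a2 are neighbours 24614 bases apart, Col6a2 and Col6a1 are 85161 bases apart, and Col4a6 and Col4a5 are 1308 bases apart.

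The 250 bases before the start are shown for 3 chains described below, each read 5′ to 3′ on the gene's own strand. Capitals mark the CCAAT box, the TATA box (TATAAA) and the GC box (GGGCGG), searched on both strands with overlapping matches allowed, and a match on the other strand appears as its reverse complement.
Col3a1, plus strand, chr1:45311288-45311537: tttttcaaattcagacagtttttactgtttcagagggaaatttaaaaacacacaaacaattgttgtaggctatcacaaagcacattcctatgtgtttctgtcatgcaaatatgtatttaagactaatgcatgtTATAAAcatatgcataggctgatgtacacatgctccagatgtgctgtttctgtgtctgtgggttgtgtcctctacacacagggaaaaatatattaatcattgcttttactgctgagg
Col15a1, plus strand, chr4:47207762-47208011: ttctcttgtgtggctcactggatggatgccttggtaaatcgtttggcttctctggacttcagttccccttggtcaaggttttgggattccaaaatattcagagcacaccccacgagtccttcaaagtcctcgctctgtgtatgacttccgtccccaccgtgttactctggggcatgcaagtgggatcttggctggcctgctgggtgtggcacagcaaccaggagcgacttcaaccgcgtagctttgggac
Col18a1, minus strand, chr10:77166531-77166780: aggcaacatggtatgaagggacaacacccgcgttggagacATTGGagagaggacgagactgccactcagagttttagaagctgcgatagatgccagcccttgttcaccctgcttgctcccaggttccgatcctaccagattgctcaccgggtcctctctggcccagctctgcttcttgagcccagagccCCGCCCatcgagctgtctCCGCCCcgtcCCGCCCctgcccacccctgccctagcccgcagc

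The Col3a1 window held TATAAA, the Col18a1 window shown held CCAAT and 3 matches of GGGCGG while a second Col18a1 window, at another start site, held none, and the Col15a1 window held none of these letters. RefSeq windows were found for 35 of the 44 members, 38 windows in all, of which 13 held CCAAT, 5 held TATAAA and 22 held GGGCGG. Among all 32851 windows of the same length the shares were 33.8%, 12.4% and 32.7%.

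The libraries held 91920461 to 110914244 UMIs in control, 82522753 to 117043590 in UIR and 49503312 to 60918546 in UUO, and 40490 cells were kept. Cells above 30% mitochondrial UMIs were left out, and these were 57.0% to 78.7% of called cells in control, 23.6% to 36.9% in UIR and 3.15% to 7.66% in UUO, so the control cells are the smaller remainder of their libraries. The median kept cell held 3320.5 to 5183 UMIs in control, 3038 to 4358 in UIR and 3713 to 4370.5 in UUO. No more than 14 cell barcodes were shared by any pair of libraries, and 213 occurred in more than 1 library. Cells were clustered here and are called X-like from marker genes, and 6084 cells stayed unnamed. Cell classes were compared on UMIs summed per library, given as CPM, which scales a gene's count by the total count of its pool, with edgeR's quasi-likelihood test and Benjamini-Hochberg adjustment over all genes of the class, and adjusted p below 0.05 is called higher or lower. RNA that leaks into the suspension also reaches droplets that hold no cell, and there the chains made up 144 to 471 CPM in control, 400 to 759 in UIR and 1055 to 2063 in UUO. For some low levels the level expected from this free RNA is given beside the value. A low value printed without it may also hold free RNA.

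Collagen RNA was richer in the injured kidneys, and a larger share of it came from stroma-like cells. The tubule stayed its largest source in UIR, while stroma-like cells were the largest in UUO. The chains made up 796 to 996 CPM in control cells, 1403 to 1567 in UIR and 2132 to 2553 in UUO. In control kidneys tubule-like cells gave 62.5% to 70.8% of all chain UMIs, podocyte-like cells 13.6% to 18.9% and stroma-like cells 3.69% to 7.25%. The tubule share was 38.1% to 43.9% in UIR and 16.4% to 22.9% in UUO. The stroma share was 24.1% to 33.5% in UIR and 42.4% to 57.9% in UUO. Stroma-like cells themselves went from 1.28% to 1.99% of kept cells in control to 4.32% to 4.69% in UIR and 4.63% to 7.55% in UUO. Parietal epithelium-like cells gave 0% to 4.05% of chain UMIs in control, 8.01% to 18.8% in UIR and 5.78% to 9.36% in UUO. Immune cells, 31.1% to 59.0% of kept cells in the injured libraries, gave 1.18% to 2.06% of the chain UMIs there. These are shares of the cells that survived dissociation and filtering, and more cells of a type cannot be told apart from easier release of that type.

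**Figure D1:**
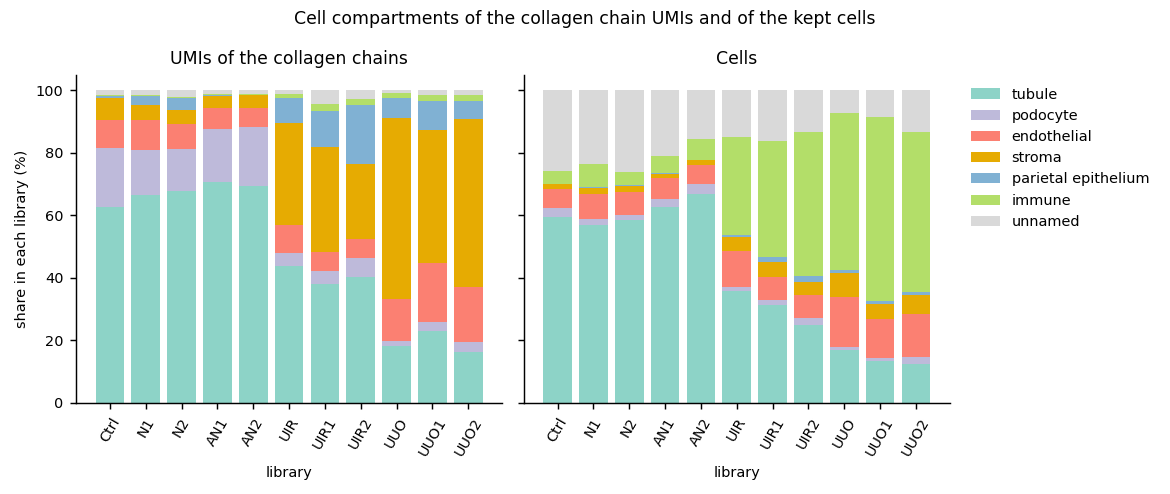
Share of all collagen chain UMIs, in percent, that came from each compartment of kept cells, as 1 stacked bar per library, with the shares of the kept cells themselves in a second panel. The tubule share falls from 62.5% or more in every control library to 22.9% or less in every UUO library, while the stroma share runs from at most 7.25% in control to at least 42.4% in UUO.

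The total over all 44 members was 495426 UMIs, and 43 members had at least 1. Col4a1 led with 88062 UMIs, followed by Col4a4 with 65256, Col18a1 with 55280, Col4a2 with 49681, Col4a3 with 43870, Col1a2 with 43194, Col3a1 with 33625 and Col1a1 with 33542. The next member was Col12a1 with 10744 UMIs, 16 members stayed under 300, and Col9a1, a cartilage collagen chain, had none. A test was possible for 34 members in at least 1 of 18 classes. The 10 that never passed the filter on low counts were Col2a1, Col9a1, Col9a2, Col9a3, Col10a1, Col11a2, Col20a1, Col22a1, Col25a1 and Col6a5, of which the cartilage chains Col2a1 and Col10a1 had 27 and 24 UMIs in all. Called at least once in some class and contrast were 29 of the 34, a count over many tests that is not set against the share of all genes.

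**Figure D2:**
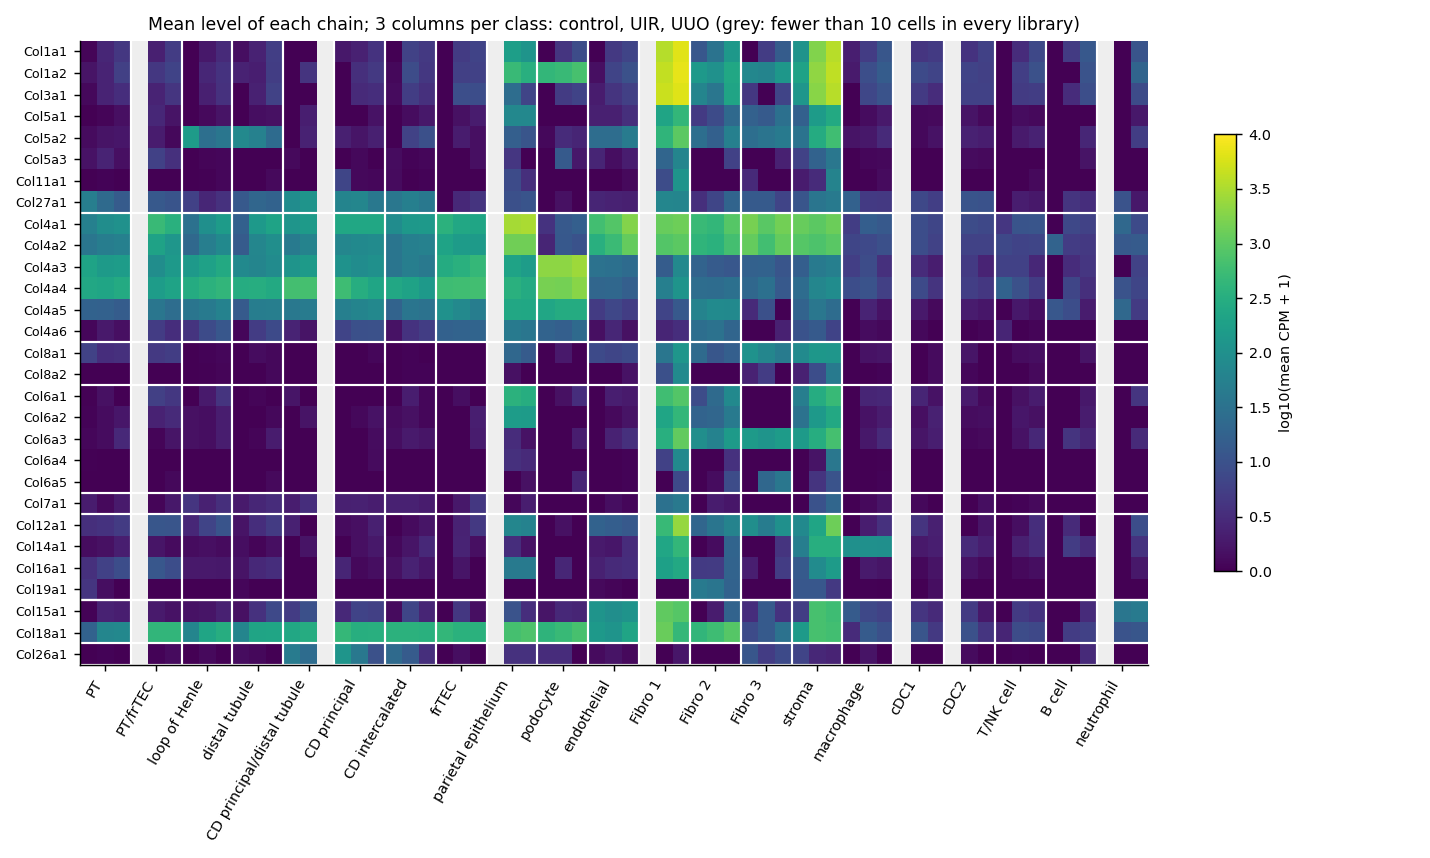
Mean level of 29 chains (rows, ordered by structural group) in 21 classes of pooled cells (columns), as log10 of mean CPM + 1 in colour, with control, UIR and UUO side by side in each class and grey where no library had 10 cells. Fibrillar chains stand high in the UIR and UUO columns of Fibro 1 and stroma, Col4a3 and Col4a4 stand high in podocytes of all 3 groups, and Col18a1 is spread over most non-immune columns.

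Pairs of chain and class were counted over the non-overlapping classes where a test was possible, with the stroma as 1 class. Of 127 pairs 31 (24.4%) were higher in UIR than in control, against 8.11% of all pairs of gene and class. They came from 18 genes, and 13 pairs from 8 genes were lower, against 6.75% of all pairs. In UUO 46 of 119 pairs (38.7%) from 25 genes were higher, against 10.5% of all pairs, and 14 pairs from 7 genes were lower, against 9.42%. The UIR and UUO comparisons share the 5 control libraries. Set against each other, the injuries differed in few pairs, and of 150 tested 10 were higher in UUO than in UIR, against 0.56% of all pairs, and 4 were lower, against 0.85%. With the library number as a block these counts were 22 and 7 of 155. The shares of all pairs just given do not apply to that fit, and its own are not given. The block counts therefore do not show a difference particular to the chains. Fibro 1, 2 and 3 and the single clusters are subsets of these classes and do not enter the counts.

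Stroma-like cells gave 90.0% of the Col1a1 UMIs and 95.7% of the Col3a1 UMIs in UIR and 96.6% and 98.0% in UUO, and of the 8 fibrillar chains tested there 6 were higher in UIR and 8 in UUO. In UIR 15 of 27 chains tested were higher than in control and none was lower, against 8.21% of all genes higher. In UUO 20 of the 27 were higher and none was lower, against 10.8% of all genes. The median log2 fold change of the 27 chains was 1.97 in UIR and 2.78 in UUO, beside 0.05 and 0.04 for all genes tested in the class. The stroma pools were not made of the same cells in each group. Fibro 3-like cells, led by Sfrp2, Ptn and Itga8, were 117 of 170 stroma-like cells in control but 71 of 765 in UIR and 164 of 795 in UUO, and Fibro 1-like cells, a cluster led by Dcn and Lum and another led by Ifitm1, Igfbp2 and Smoc2, were 3, 49 and 251. In a pool a change in the mix of cells and a change in the RNA per cell cannot be told apart. The control pools were small, from 25 cells in AN1 upward, and library Ctrl stood apart in them for several chains.

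Col1a1 and Col1a2, the chains of collagen I, and Col3a1, the chain of collagen III, moved together. Col1a1 (chromosome 11, 94936224 to 94953042) stood at 453, 5.21, 5.76, 0 and 105 CPM in Ctrl, N1, N2, AN1 and AN2, at 1856, 1892 and 1494 CPM in UIR, and at 3236, 3458 and 4561 CPM in UUO. The log2 fold change against control was 3.82 (SE 0.70, edgeR adjusted p = 0.00108) in UIR and 4.87 (SE 0.71, adjusted p = 0.000113) in UUO. No injured library overlapped with a control library, and the highest level expected from free RNA in any stroma pool was 12.6 CPM. Col3a1, whose start window is shown above, stood at 515, 15.6, 11.5, 7.25 and 73.2 CPM in control, 1998, 2134 and 1767 in UIR and 3440, 3660 and 3964 in UUO, with log2 fold changes of 3.87 (SE 0.67, adjusted p = 0.000709) and 4.72 (SE 0.68, adjusted p = 0.0001). Col1a2 (chromosome 6, 4504814 to 4541544) stood at 557, 135, 51.8, 58.0 and 188 CPM in control, 2096, 2396 and 1914 in UIR and 3807, 3967 and 4685 in UUO, with log2 fold changes of 3.41 (SE 0.46, adjusted p = 8.48e-05) and 4.32 (SE 0.47, adjusted p = 5.96e-06). All 3 chains stood above the UIR libraries in every UUO library, by log2 fold changes of 1.06 for Col1a1, 0.91 for Col1a2 and 0.86 for Col3a1 that did not pass the test (adjusted p = 0.742, 0.596 and 0.809). Without Ctrl the log2 fold changes in UIR and UUO were 5.89 and 6.94 for Col1a1, 4.35 and 5.26 for Col1a2, and 6.195 and 7.05 for Col3a1. The stroma counts of 15 and 20 were 17 and 20 without Ctrl, and 12 and 16 with DESeq2, which gave no adjusted p for Col1a1 and Col3a1 in either injury. The shares of all genes called in these other fits are not given.

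The chains of collagens V and XI join the collagen I fibre and set its width. Of the minor fibrillar chains, Col5a1, Col5a2 and Col27a1 were higher in each injury. Col5a2 stood at 15.6 to 61.5 CPM in the control pools, 297, 361 and 216 in UIR and 497, 631 and 618 in UUO, with log2 fold changes of 3.14 (SE 0.30, adjusted p = 2.9e-06) and 4.08 (SE 0.29, adjusted p = 1.22e-07). Col5a1 rose by 3.14 and 3.87 on the same scale from 0 to 35.6 CPM in control, with the highest value in Ctrl, and by 3.85 and 4.57 without that library. Col27a1, a fibrillar chain known from cartilage, rose by 1.77 and 1.98 at lower levels, from 0 to 17.3 CPM in control to 32.6 to 37.6 in UIR and 36.7 to 51.3 in UUO. In the stroma Col11a1 was nearly confined to the UUO libraries. It stood at 5.21 CPM in N1 and 0 in the other 4 controls, at 0.708, 3.37 and 2.24 CPM in UIR and at 82.2, 48.3 and 52.4 CPM in UUO, a log2 fold change of 4.64 against UIR (SE 0.38, adjusted p = 2.25e-06). Col5a3 passed the test in UUO only (2.25, SE 0.63, adjusted p = 0.0179) and lost the call without control N1 or UUO 2 (adjusted p up to 0.053). Its control UMIs all came from Ctrl, at 25.9 CPM, so that without Ctrl the fold has no finite value.

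**Figure D3:**
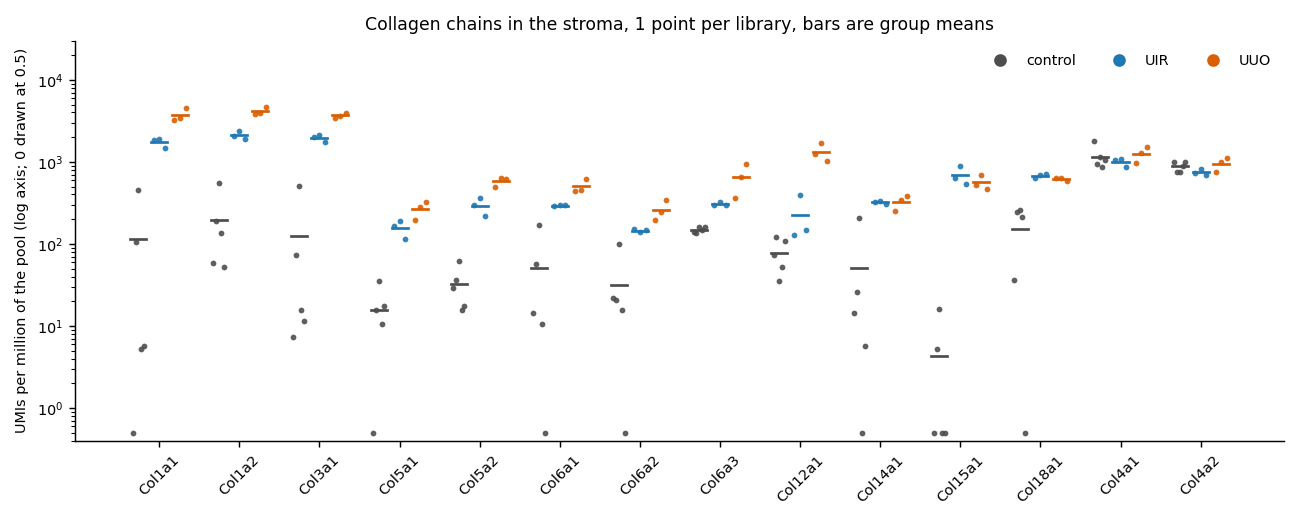
Level of 14 chains in the stroma-like pool of each library, in CPM on a log axis, with 1 point per library, bars for group means, colours for control, UIR and UUO, and zeros drawn at 0.5. Col1a1, Col3a1, Col5a2, Col12a1 and Col15a1 show no overlap between the UUO and control libraries, while the points of Col4a1 and Col4a2 overlap.

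Of the 4 fibril-associated chains tested in the stroma, which coat fibres and link them to their surroundings, 3 were higher in each injury and 1, Col12a1, differed between the injuries. Col12a1 (chromosome 9, 79598991 to 79718831), known from tissue under tension, stood at 35.6, 52.1, 109, 72.5 and 120.2 CPM in control, 127, 394 and 149 in UIR and 1238, 1678 and 1023 in UUO. Its log2 fold change was 4.14 in UUO against control (SE 0.39, adjusted p = 1.71e-06) and 2.48 in UUO against UIR (SE 0.39, adjusted p = 0.00127). Every UUO library was above every UIR library. In UIR the change of 1.66 (adjusted p = 0.00868) rested on UIR 1, and without that library it was 0.94 (adjusted p = 0.0936). Col14a1 stood at similar levels in the injuries, 305 to 338 CPM in UIR and 253 to 382 in UUO, against 207 CPM in Ctrl and 0 to 26.1 in the other controls, with log2 fold changes of 2.42 and 2.37, or 4.89 and 4.85 without Ctrl. Col16a1 rose by 2.51 and 3.33, from 0 to 35.6 CPM to 70.6 to 94.0 in UIR and 144 to 161 in UUO, and by 3.64 and 4.45 without Ctrl, which held the 35.6. Col19a1 was not called in the stroma.

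Of collagen VI, the beaded filament around cells, Col6a1, Col6a2 and Col6a3 were higher in each injury. Col6a1 stood at 172, 10.4, 0, 14.5 and 57.5 CPM in control, 289, 297 and 295 in UIR and 435, 450.1 and 624 in UUO, with log2 fold changes of 2.33 (adjusted p = 0.00331) and 3.06 (adjusted p = 0.000217). Col6a2 rose by 1.98 and 2.78, and without Ctrl the values were 3.86 and 4.585 for Col6a1 and 3.41 and 4.215 for Col6a2, and Col6a3 by 1.12 and 2.17. Col6a3 differed from its partners in that control stroma already held 136 to 161 CPM of it in all 5 libraries. Against UIR, Col6a3 was higher in UUO by 1.05 (adjusted p = 0.0384), and this call was lost when N1, AN2, UUO 1, UUO 2 or any UIR library was left out (0.65 to 1.34, adjusted p up to 0.288). Col6a4 had 7.17, 13.7 and 90.1 CPM in UUO and at most 1.93 in any other stroma pool, and its call against UIR (adjusted p = 0.0327) was lost when any UIR library was left out (adjusted p up to 0.152).

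Network and anchoring chains were sparse but not flat. Col8a2, a chain of the short-chain network collagen known from vessel walls and the cornea, stood at 6.48 CPM in Ctrl, 0 in the other controls, 2.80 to 12.03 in UIR and 44.3, 45.6 and 36.6 in UUO, and the log2 fold change of UUO was 4.36 against control (adjusted p = 0.000194) and 2.39 against UIR (adjusted p = 0.0005). Without Ctrl no control library held a Col8a2 UMI, so that the size of the first value rests on Ctrl. Its partner Col8a1 was not called in the stroma. Col7a1, the anchoring fibril chain, had no UMI in any control stroma pool and 18.6, 23.6 and 18.6 CPM in UUO (adjusted p = 0.0116). Pooled over the UUO libraries it stood at 20.08 CPM, at least 6.72-fold higher than the 2.99 CPM that 3 UMIs over the control pools would give. With 5 of 27 chains higher in UUO than in UIR, against 1.08% of all genes, the stroma differences between the injuries were Col11a1, Col12a1, Col8a2, Col6a3 and Col6a4. When the shallow and the tubule-mixed stroma clusters were left out 3 of 26 were called, a fit to which the 1.08% does not apply.

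The multiplexin Col15a1, a basement membrane zone collagen that carries an antiangiogenic fragment at its end, showed the largest fitted stroma fold change, in UIR and in UUO, of any tested chain with a UMI in control stroma. It stood at 16.2, 0, 0, 0 and 5.23 CPM in control, 637, 900.2 and 534 in UIR and 523, 696 and 470.4 in UUO, with log2 fold changes of 6.93 (SE 0.43, adjusted p = 1.28e-08) and 6.58 (SE 0.43, adjusted p = 5.36e-08), or 8.90 and 8.55 without Ctrl. Only 6 Col15a1 UMIs were counted in control stroma, and in control kidneys endothelial-like cells gave 91.8% of its 497 UMIs, while in UIR and UUO stroma-like cells gave 77.1% and 68.4%. In endothelial-like pools Col15a1 averaged 115, 93.1 and 113 CPM and was not called. Col18a1, whose fragment endostatin is also antiangiogenic, stood at 262, 214, 0, 36.2 and 246 CPM in control stroma, 631, 689 and 706 in UIR and 636, 640 and 592 in UUO, with log2 fold changes of 2.14 (adjusted p = 0.00415) and 1.97 (adjusted p = 0.00601).

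Of the 6 collagen IV chains tested in the stroma 1 was higher in UIR and 2 in UUO, and Col4a1 and Col4a2 were not among them. Col4a1 stood at 1143, 854, 1042, 1818 and 946 CPM in control, 1044, 1083 and 870 in UIR and 972, 1268 and 1507 in UUO, with log2 fold changes of -0.13 and 0.14. Col4a2 stood at 758 to 1007 CPM in control, 695 to 816 in UIR and 755 to 1114 in UUO. Leaving aside the stroma's own subsets and single clusters, stroma was the class with the highest control level of Col4a1, a mean of 1161 CPM, above endothelial-like cells at 613 and frTEC-like cells at 364 with no overlap between these classes' libraries. The ratio of Col4a1 to Col4a2 UMIs in the stroma was 1.31, 1.33 and 1.31 in control, UIR and UUO. Col4a4 rose by 1.44 and 1.76 on the log2 scale in UIR and UUO and Col4a3 by 1.75 in UUO (adjusted p = 0.0152), while Col4a5 and Col4a6 were not called.

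Fibro 1-like cells could be compared only between UUO and UIR because 3 such cells were found in control. In UUO they gave 18819 of the 22335 stroma UMIs of Col1a1, but in UIR 49 such cells gave 1701 of 9216, while 2 unnamed stroma clusters of 161 and 65 UIR cells held 4632 and 2150, the latter counted in 2 libraries. Fibro 1-like cells held the highest mean levels of Col1a1 and Col3a1 of any named class, and in UIR the Col1a1 level of 2577 to 3773 CPM in the larger unnamed cluster overlapped with theirs. Col1a1 stood at 2714, 3759 and 4199 CPM in UIR and 5353, 5588 and 8881 in UUO, Col1a2 at 3348, 4733 and 4923 against 6289, 6293 and 8982, and Col3a1 at 3682, 5362 and 5407 against 5548, 6082 and 7511, with every UUO library above every UIR library and no call (Col1a1 0.88, adjusted p = 0.0841). Of 23 chains tested 7 were higher in UUO, against 1.46% of all genes. Col11a1 went from 0, 14.8 and 7.79 CPM to 161, 90.4 and 101 (3.77, SE 0.55, adjusted p = 0.000752), Col12a1 from 205, 836 and 467 CPM to 2322, 2798 and 1796 (2.15, SE 0.34, adjusted p = 0.00144), and Col8a2 from 0, 9.84 and 15.6 CPM to 82.1, 80.6 and 76.5 (3.2, SE 0.50, adjusted p = 0.00149). The Fibro 1 pools joined a pair of clusters in unlike shares, 1 of them holding 105 of 251 cells in UUO but 2 of 49 in UIR. In the other, of 47 UIR and 146 UUO cells, Col12a1 was higher in UUO whichever library was left out (2.37, adjusted p = 0.00131), while Col11a1 (3.59) lost the call without UIR 1 or UIR 2 (adjusted p up to 0.0719) and Col8a2 (3.21) without UIR 1 (adjusted p = 0.14). These are the chains that also set UUO apart from UIR in the whole stroma, to which the same cells contribute. Col6a3, Col4a3, Col8a1 and Col5a2 were called with log2 fold changes of 1.74, 2.31, 1.70 and 1.25, and each call was lost when UIR 1 was left out (adjusted p up to 0.0858, 0.088, 0.0784 and 0.0946 over the libraries). Those of Col4a3 and Col8a1 were also lost without UIR unnumbered or UIR 2, and that of Col5a2 without UIR unnumbered or UUO 2. Col18a1 went the other way. It stood at 1125, 1279 and 1270 CPM in UIR and 516, 559 and 282 in UUO, a log2 fold change of -1.46 (SE 0.23, adjusted p = 0.00168). In the cluster of 47 and 146 cells it was -1.20 (adjusted p = 0.00452), a call lost without UIR 1 (adjusted p = 0.0515).

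Fibro 2-like cells, led by Myh11, Rgs5 and Acta2, which are genes of contractile cells, held fibrillar chains at far lower levels. Against the 3 control libraries with enough cells, 3 of 15 chains were higher in UUO, against 0.997% of all genes. Col6a1 stood at 0, 11.2 and 11.5 CPM in Ctrl, N1 and AN2, 12.4, 29.1 and 27.0 in UIR and 91.3, 47.8 and 97.4 in UUO, a log2 fold change of 3.55 (adjusted p = 0.00784) that was lost without Ctrl (adjusted p = 0.121). The calls of Col18a1 (1.019) and Col1a1 (3.83) were lost without Ctrl too, and each also without N1, AN2 or UUO 2, that of Col1a1 further without UIR 2 or UUO unnumbered (adjusted p up to 0.104 and 0.275). Against UIR 7 of 15 chains were higher in UUO, against 0.589% of all genes, but the number ran from 1 to 9 as single libraries were left out and was 1 with DESeq2. Col6a1 alone (1.75, adjusted p = 0.00572) kept the call whichever library was left out. Col3a1, at 436, 30.7 and 190.4 CPM in the UUO libraries, did not, and lost it without UIR 1 or UUO unnumbered (adjusted p up to 0.0722).

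Fibro 3-like cells held next to no Col1a1 or Col3a1. Col1a1 had 0 UMIs in control, 10 in UUO and 1 in the 1 UIR pool with enough cells, and Col3a1 had 2, 4 and 0. Col4a1 was the leading chain there, at 1624, 1226, 1052, 1985 and 1583 CPM in control and 941, 1516 and 1786 in UUO, and of the 6 chains tested none was higher in UUO, against 1.14% of all genes, and 1 was lower, against 1.86%. It was Col8a1, with overlapping libraries (-1.32, adjusted p = 0.0315, and up to 0.164 without Ctrl, AN1, AN2 or UUO unnumbered). Col1a2 averaged 70.9 ± 30.3 CPM in control (SD, n = 5) and 129 ± 38.4 in UUO (SD, n = 3) and was not called (edgeR adjusted p = 0.109).

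Endothelial-like cells held more of the general basement membrane pair in UUO. Col4a1 stood at 828, 608, 519, 617 and 494 CPM in control. It stood at 762, 876 and 921 CPM in UIR and at 1333, 2012 and 2107 CPM in UUO. The log2 fold change was 1.47 in UUO against control (SE 0.16, adjusted p = 2.25e-06), 1.05 against UIR (SE 0.18, adjusted p = 0.00193) and 0.42 in UIR against control (adjusted p = 0.232). Col4a2 stood at 374, 342, 342, 301 and 306 CPM in control, 491, 557 and 555 in UIR and 817, 1264 and 1345 in UUO, with log2 fold changes of 1.68 (SE 0.14, adjusted p = 1.25e-07) in UUO and 0.63 (adjusted p = 0.0205) in UIR. The UIR call of Col4a2 was lost without AN1, AN2, UIR 1 or UIR 2 (adjusted p up to 0.098). In all 6 of 13 chains were higher in UUO than in control, against 6.18% of all genes, and 3 were higher than in UIR, against 1.07%. Stroma markers also stood higher in these pools, at a sum of 34.4 to 182 CPM in UUO and 5.82 to 15.5 in control, where Lum, Cnn1 and Notch3 were at 0, and their part in the result was not tested. Col1a2 reached 13.4, 3.77 and 8.98 CPM in UUO endothelial pools (3.81, adjusted p = 0.00246), below the 32.3 CPM that free RNA could give.

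Among 3 endothelial-like clusters the multiplexin Col18a1 moved in opposite directions. In the cluster led by Plvap, Fabp4 and Flt1, which are genes of peritubular capillaries, Col18a1 stood at 2.36, 0, 0, 6.14 and 6.33 CPM in control, 8.37, 10.3 and 3.66 in UIR, and 207, 136 and 122 CPM across the UUO libraries. The log2 fold change was 5.43 against control (SE 0.46, adjusted p = 9.16e-11) and 4.29 against UIR (SE 0.30, adjusted p = 1.31e-11). After thinning every cell to 1000 UMIs, Col18a1 was seen in 0.858%, 1.78% and 4.35% of these cells in control, UIR and UUO, and unthinned in 1.26%, 3.03% and 12%, at median depths of 3798, 3920 and 4132 UMIs. In the cluster led by Sox17, Ptprb and Ly6c1, a pattern known from arteries, Col18a1 stood at 133 to 312 CPM in control, 202 to 270 in UIR and 582, 473 and 644 in UUO (1.47, SE 0.21, adjusted p = 4.95e-05). In the cluster led by Emcn, Kdr and Ehd3, which are genes of glomerular capillaries, it stood at 190.3, 179, 181, 128 and 138 CPM in control, 82.9, 85.7 and 72.3 in UIR and 61.4, 102 and 110.3 in UUO, with log2 fold changes of -1.07 (SE 0.20, adjusted p = 0.00123) and -0.94 (SE 0.18, adjusted p = 0.000559). Stroma markers summed to 15.7 to 48.8 CPM in UUO and 0 to 13.8 in control in the Plvap cluster, where Pdgfrb, Dcn, Lum and 4 others of the 9 were at 0 in control.

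Col4a1 and Col4a2 rose in all 3 endothelial-like clusters in UUO, by 1.23 and 1.53 in the Plvap cluster, 1.46 and 1.88 in the Sox17 cluster and 1.34 and 1.38 in the Emcn and Kdr cluster. With them, 3 of 7 chains were higher in the Plvap cluster, against 6.21% of all genes, 4 of 8 in the Sox17 cluster, against 2.41%, and 2 of 6 in the Emcn and Kdr cluster, against 5.07%, where Col18a1 was the 1 chain lower, against 5.21%. In the Plvap cluster 2 of the 7 were lower, against 6.11%. Col4a3 stood at 7.72 to 88.6 CPM in control, 24.4 to 31.8 in UIR and 11.4 to 23.4 in UUO (-1.77, adjusted p = 0.000614), with overlapping libraries, and Col4a4 (-1.43, adjusted p = 0.0485) lost the call without Ctrl, N1, AN2, UUO 1 or UUO 2 (adjusted p up to 0.291). Empty droplets held Col4a3 at 23.2 to 114.5 CPM in control, 34.0 to 71.5 in UIR and 40.5 to 64.5 in UUO. The Col4a4 call also ended once free RNA was subtracted. The fourth chain of the Sox17 cluster was Col5a2, at 17.6 to 130.2 CPM in control, 44.1 to 65.7 in UIR and 162, 150 and 159 in UUO (1.43, adjusted p = 0.00154). Over all endothelial-like cells Col5a2 reached adjusted p = 0.0458 and Col18a1 0.0485 in UUO, and those calls were not stable to leaving out libraries (adjusted p up to 0.109 and 0.188). Both were lost without Ctrl, AN1, AN2, UIR 1, UIR 2, UUO unnumbered or UUO 2, the former also without N1 or UUO 1 and the latter also without N2. Col28a1, a beaded filament-like chain known from peripheral nerve, had no UMI in control endothelial pools, 0, 1.18 and 2.04 CPM in UIR and 4.74, 4.95 and 7.19 in UUO (adjusted p = 0.00436). Its pooled UUO level of 5.55 CPM was at least 7.05-fold higher than the 0.788 CPM of 3 UMIs. Col28a1 gave a value in 5 of the 11 fits with a library left out and kept the call in those.

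Podocyte-like cells held the highest levels of the glomerular collagen IV chains, in control and injured kidneys alike, although the far more numerous tubule-like cells gave 66.9% of the Col4a3 UMIs and 80.7% of the Col4a4 UMIs of control. Col4a3 stood at 1964, 2365, 2179, 1909 and 2186 CPM in control, 1834, 2237 and 2259 in UIR and 1891, 2968 and 2818 in UUO. Col4a4 stood at 1388, 1626, 1718, 1276 and 1531 CPM in control, 1372, 1487 and 1589 in UIR and 1463, 2046 and 2388 in UUO, with every group overlapping. Log2 fold changes in UUO were 0.25 (SE 0.14, adjusted p = 0.441) and 0.36 (SE 0.14, adjusted p = 0.208), and those in UIR were -0.01 (SE 0.14) and -0.02 (SE 0.14). Col4a5, the third chain of the glomerular form, stood at 191 to 266 CPM in control, 246 to 357 in UIR and 275 to 308 in UUO and was not called. The control mean of Col4a3 in podocytes was 2121 CPM, and the next classes were frTEC-like cells at 287 and PT-like cells at 205, whose libraries overlapped.

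A fibrillar chain was also present in podocytes without its partner. Col1a2 stood at 544, 416, 513, 430 and 345 CPM in control podocyte pools, 648, 493 and 399 in UIR and 685, 582 and 798 in UUO, and control podocytes gave 79.2% of all Col1a2 UMIs of the control libraries. The ratio of Col1a1 to Col1a2 UMIs was 0 of 1119 in control podocytes, 0.00535 in UIR and 0.0111 in UUO, whereas it was 0.645, 0.812 and 0.899 in the stroma. Stroma markers summed to 17.7 to 37.4 CPM in control podocytes, 30.9 to 74.0 in UIR and 32.6 to 83.4 in UUO, with Lum at 0 in all 3 groups. In UUO 2 of 5 chains were higher than in control, against 1.47% of all genes. They were Col18a1, at 354 to 485 CPM in control and 825, 577 and 667 in UUO (0.74, SE 0.14, adjusted p = 0.00298), and Col1a2 (0.58, SE 0.16, adjusted p = 0.0473), whose call was lost without N1, AN1, AN2, UIR 1, UUO unnumbered or UUO 2 (adjusted p up to 0.344).

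Parietal epithelium-like cells had too few control cells for a test. The name rests on the markers Cldn1, Akap12, Dkk3, Ncam1 and Cp, of which Akap12 and Cp were among the 10 genes that led the cluster, but the first 4 of the 10 were Tagln, Vim, Sparc and Bgn, genes known from contractile and stromal cells. Neither Akap12 nor Cp is particular to the class. Cp is also a marker used for frTEC-like cells, and Akap12 was also among the genes that led their cluster. The class held 16 cells in control, 258 in UIR and 141 in UUO, so the name is uncertain. This class held the highest mean Col4a1 of any named class in the injured kidneys, at 2803, 2760 and 2963 CPM in UIR and 2673, 3108 and 3567 in UUO, with Col4a2 at 1328, 1348 and 1365 against 1140, 1426 and 1530. Col18a1 averaged 649 and 754 CPM, Col1a2 517 and 338, and Col6a1 378 and 309 in UIR and UUO. None of 16 chains differed between the injuries, and of all 9100 genes tested 0 were higher and 5 lower in UUO than in UIR. Stroma markers summed to 1234 to 2144 CPM in these pools in UIR and 1367 to 1857 in UUO, below the 6624 to 10340 of the injured stroma. The ratio of Col1a1 to Col1a2 was 0.346 and 0.328. Col3a1 averaged 26.2 and 5.57 CPM there, against 1966 and 3688 in the stroma.

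**Figure D4:**
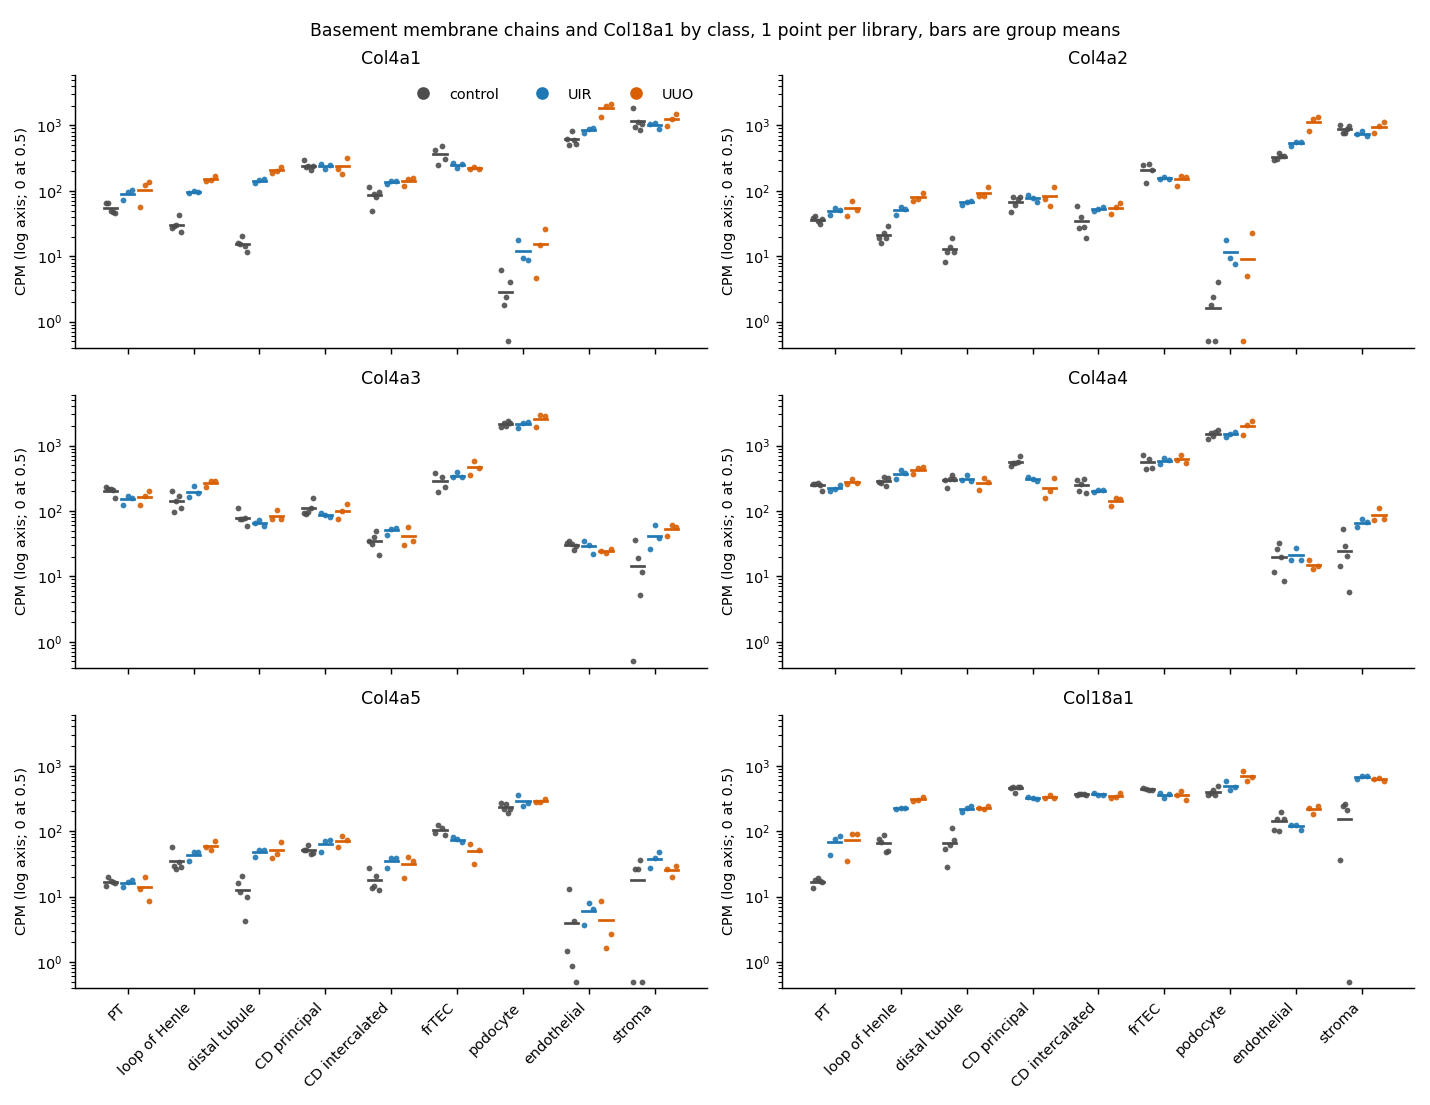
Level of Col4a1, Col4a2, Col4a3, Col4a4, Col4a5 and Col18a1 in 9 classes, in CPM on a log axis, with 1 point per library, bars for group means, colours for control, UIR and UUO, and zeros drawn at 0.5. Col4a1 and Col18a1 points of UIR and UUO lie above control in loop of Henle and distal tubule, Col4a3 and Col4a4 points overlap in podocytes, and Col4a4 and Col18a1 points of the injuries lie below control in principal cells.

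In the distal nephron Col4a1 and Col4a2 were higher in distal tubule and loop of Henle cells of both injuries, and Col4a4 was lower in collecting duct principal cells of both. In loop of Henle-like cells Col4a1 stood at 30.02, 42.8, 23.4, 27.1 and 29.1 CPM in control, 92.8, 99.5 and 96.7 in UIR and 144, 146 and 171 in UUO, with log2 fold changes of 1.48 (SE 0.17, adjusted p = 4.87e-07) and 2.14 (SE 0.17, adjusted p = 6.64e-10). UUO also lay above UIR by 0.66 (adjusted p = 0.0022). Col4a2 rose by 1.01 and 1.64, Col18a1 by 1.48 and 1.92, from 47.6 to 88.3 CPM in control to 218 to 228 in UIR and 289 to 329 in UUO. In UIR 3 of 11 chains were higher, against 17.8% of all genes, and in UUO 6 of 11, against 20.9%, so the share of chains called in UIR was not far from that of all genes. Col4a3 was among those higher in UUO (0.68, adjusted p = 0.00381). Its neighbour across the 71 bases, Col4a4, averaged 290, 370 and 426 CPM, in the same direction, and was not called. The difference between these neighbours was not tested. Col5a2 fell steeply. It stood at 148, 143, 192, 136 and 156 CPM in control loop cells, 22.1, 26.4 and 35.3 in UIR and 27.9, 36.8 and 45.2 in UUO, with log2 fold changes of -2.70 (SE 0.18, adjusted p = 7.05e-11) and -2.35 (SE 0.18, adjusted p = 3.99e-10).

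The loop class was not the same cluster in each group. A cluster led by Egf, Slc12a1 and Umod held 256 of 269 loop cells in control but 71 of 1235 in UIR and 3 of 751 in UUO, where clusters led by Umod, Slc12a1 and Cldn10 and by S100a6, Umod and Mt2 held 783 and 381 cells in UIR and 300 and 448 in UUO. The loop markers summed to 19780 to 24890 CPM in control, 13240 to 13740 in UIR and 6888 to 8156 in UUO. Within the Egf cluster Col5a2 was still lower in UIR, at 149 to 200.1 CPM in control and 28.02, 54.3 and 29.2 in UIR (-2.07, SE 0.29, adjusted p = 6.11e-06), the 1 of 5 chains lower there, against 0.832% of all genes. None of the 5 was higher there with edgeR, against 1.05% of all genes, or with DESeq2. At an unadjusted p below 0.05 with edgeR 2 were higher, Col4a3 (0.59, adjusted p = 0.219) and Col4a5 (1.22, adjusted p = 0.0507). Col18a1 (0.16, adjusted p = 0.905) was not called, and Col4a1 and Col4a2 fell under the filter on low counts, at 20.6 to 44.7 and 11.9 to 29.8 CPM in control and 31.7 to 87.6 and 31.7 to 73.0 in UIR. Without that filter none of 20 chains was higher in the Egf cluster, and without AN1 1 of 5 was.

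In distal tubule-like cells Col4a2 and Col18a1 rose and Col5a2 fell as in the loop, with a larger rise of Col4a1. It stood at 20.5, 14.6, 11.7, 16.0 and 15.2 CPM in control, 132, 148 and 151 in UIR and 188, 203 and 232 in UUO, with log2 fold changes of 2.74 (SE 0.18, adjusted p = 1.48e-11) and 3.23 (SE 0.18, adjusted p = 2.48e-13). Col4a2 rose by 1.93 and 2.38, Col4a5 by 1.41 and 1.49 and Col18a1 by 1.35 and 1.35. In each injury 4 of 8 chains were higher, against 18.7% of all genes in UIR and 21.8% in UUO. Lower in UIR were 2 of 8, against 19.1%, and in UUO also 2, against 21.2%. Col5a2 was 1 of them in each injury, at 33.3 to 107 CPM in control, 39.3 to 69.04 in UIR and 21.4, 26.3 and 23.4 in UUO (-2.12 in UUO, SE 0.26, adjusted p = 2.47e-07), and the UIR libraries overlapped with control. The normalization moved fold changes in this class, and Col4a3, called lower in UIR by 0.63 on the log2 scale, averaged 79.2 CPM in control and 66.0 in UIR with overlapping libraries. Likewise Col4a4, called lower in UUO by 0.60 on the log2 scale (adjusted p = 0.00338), averaged 298 CPM in control and 267 in UUO with overlapping libraries, and was not called at a mitochondrial limit of 15% (adjusted p = 0.238). A cluster led by Slc12a3 and Calb1 held 419 of 421 of these cells in control, and a cluster led by Slc12a3, Tmem52b and Klk1 held 315 of 400 in UIR and 169 of 183 in UUO, while the markers of the class summed to 17100 to 39540, 2731 to 6533 and 891 to 2488 CPM. Within the first cluster Col4a1 was higher in UIR at 50.2, 47.5 and 71.3 CPM (1.68, adjusted p = 0.0258), 1 of 5 chains, against 0.659% of all genes. That call was lost without N2 or any UIR library (adjusted p up to 0.147).

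Collecting duct principal-like cells had Col4a4 and Col18a1 at high levels in control and at lower levels in the injured kidneys. Col4a4 stood at 545, 565, 688, 484 and 536 CPM in control, 330.1, 305 and 288 in UIR and 159, 204 and 318 in UUO, with log2 fold changes of -0.94 (SE 0.17, adjusted p = 0.000652) and -1.42 (SE 0.18, adjusted p = 3.62e-06). Col18a1 stood at 385 to 476 CPM in control, 327, 326 and 313 in UIR and 320, 351 and 319 in UUO (-0.56 and -0.54, adjusted p = 0.00323 and 0.00208). Col26a1, a chain outside the larger structural groups, stood at 103 to 144 CPM in control, 36.6, 52.2 and 28.1 in UIR and 10.2, 8.59 and 7.88 in UUO, with log2 fold changes of -1.71 (SE 0.20, adjusted p = 4.82e-06) and -3.83 (SE 0.24, adjusted p = 4.13e-10), and UUO lay below UIR by -2.12 (adjusted p = 6.45e-05). Lower in UIR were 3 of 9 chains, against 8.08% of all genes, and in UUO 4 of 9, against 15.7%. The fourth was Col27a1 (-0.88, adjusted p = 0.0391), with overlapping libraries, which lost the call without Ctrl, N2, AN1, AN2, UUO unnumbered or UUO 1 (adjusted p up to 0.231) and turned to 0.32 at a mitochondrial limit of 15%. Col4a1 averaged 242, 242 and 239 CPM and was not called. The cluster led by Aqp2 and Aqp3 held 233 of 239 cells in control but 144 of 319 in UIR and 14 of 311 in UUO, where a cluster led by Clu and Spink8 held 146 and 235 and a cluster led by Aldh1a3 and Aqp4 held 29 and 62. In this last cluster, with 2 usable libraries in each injury and so no fit with 1 of them left out, Col4a1 stood at 73.6 and 128 CPM in UIR and 10.1 and 16.9 in UUO (-2.68, adjusted p = 0.00298) and Col4a2 at 35.1 and 37.2 against 3.56 and 6.76 (-2.96, adjusted p = 0.039), where free RNA could give up to 11.4 and 8.38 CPM in UUO. The principal markers summed to 19210 to 26990, 8237 to 10090 and 2901 to 3837 CPM.

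Within the Aqp2 cluster 3 of 8 chains were lower in UIR, against 3.81% of all genes, namely Col18a1 (-0.66, adjusted p = 0.00184), Col4a4 and Col4a3, of which Col4a3 was not called in the whole class. The calls of Col4a3 and Col4a4 were lost without N2, UIR 1 or UIR 2, and that of Col4a3 also without N1 or UIR unnumbered (adjusted p up to 0.233 and 0.129). Over the fits with 1 library left out the log2 fold change ran from -0.802 to -0.546 for Col4a3. That of Col4a4 ran from -0.546 to -0.416, beside -0.939 in the whole class. Col27a1 was the 1 chain higher, against 2.73% of all genes, at 40.7 to 84.9 CPM in control and 86.1 to 148 in UIR (0.78, adjusted p = 0.0192), a call lost without N1, AN1 or UIR 1 (adjusted p up to 0.431). Col26a1 was not called there, at 123 ± 13.4 CPM in control (SD, n = 5) and 88.5 ± 15.3 in UIR (SD, n = 3), while the Clu and Spink8 cluster held 10.7 CPM in UIR and 6.69 in UUO.

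Intercalated-like cells gave results that turned with a filter on cells. Col4a4 stood at 257, 313, 189, 299 and 202 CPM in control, 195, 207 and 210.3 in UIR and 120.4, 155 and 155 in UUO (-1.16, SE 0.15, adjusted p = 5.05e-06). Lower in UIR were 2 of 9 chains, against 11.7% of all genes, and in UUO 3, against 14.7%, of which Col18a1 was lost without UUO 1 (adjusted p = 0.0902). The other chain lower in each injury was Col26a1, with log2 fold changes of -1.17 in UIR and -3.43 in UUO. Its UIR call was lost without N1 or UIR 2 (adjusted p up to 0.103), while its UUO call was kept whichever library was left out. With a mitochondrial limit of 15% in place of 30%, the change of Col4a4 turned to 2.08 in UIR (adjusted p = 0.000677) and 1.56 in UUO (adjusted p = 0.0172) and that of Col18a1 in UUO to 1.31. That limit left 74 of 245 control intercalated cells and 404 of 639 in UIR, and before it the median cell of the class held 3789 UMIs in control and 13582 in UIR, so the direction of these chains in this class depends on that limit. The class was also made of unlike clusters. A shallow cluster, with a median of 1295 UMIs, held 137 of 245 cells in control, 205 of 639 in UIR and 33 of 252 in UUO. At the 15% limit it held 68 of the 74 control cells and 139 of the 404 UIR cells. Its part in the changes at either limit was not tested. The frTEC-like cells were named from Slc14a2, Cp, Vcam1, Spp1, Krt8, Cryab and Cdh6, but of these only Cryab was among the 10 genes that led the cluster, which began with Bst1, Tshz2 and Aqp1, the last known also from the thin descending limb, and 78 of the cells came from control. In them 2 of 6 chains were lower in UUO, against 5.71% of all genes. Col4a5 stood at 126, 111, 87.9 and 94.2 CPM in 4 control libraries and 63.3, 31.8 and 51.7 in UUO (-1.07, adjusted p = 0.0103, and 0.0558 without Ctrl), and Col4a1 at 247 to 488 against 216 to 230 CPM (-0.75, adjusted p = 0.0246), a call lost without N1, AN2 or any UUO library (adjusted p up to 0.0827).

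PT-like cells gave 9645 of the 16382 Col4a3 UMIs and 11557 of the 20859 Col4a4 UMIs of control. Col18a1 rose in both injuries. It stood at 19.0, 17.4, 16.9, 13.5 and 17.8 CPM in control, 43.5, 76.6 and 85.1 in UIR and 34.8, 90.1 and 91.0 in UUO, with log2 fold changes of 1.98 (SE 0.18, adjusted p = 7.09e-07) and 2.03 (SE 0.25, adjusted p = 4.18e-05). In UIR 6 of 15 chains were higher, against 12.9% of all genes, and 4 lower, against 7.27%, and in UUO 5 were higher, against 8.41%. Col27a1 fell, from 38.3, 48.9, 73.0, 40.5 and 56.0 CPM in control to 26.1, 23.8 and 19.6 in UIR and 8.69, 10.6 and 19.6 in UUO (-1.18, adjusted p = 0.000405, and -2.05, adjusted p = 0.00109). The same chain rose in the stroma, and PT-like cells and other tubule cells gave 97.3% of its UMIs in control but 59.0% in UUO. Col4a1 was higher by 0.67 in UIR and 0.85 in UUO, calls that were lost without UIR 1 (adjusted p = 0.0504) and without UUO 1 or UUO 2 (adjusted p up to 0.13). Col4a3 was lower in UIR by 0.48 on the log2 scale with overlapping libraries (adjusted p = 0.0216, and up to 0.0877 without AN1, UIR unnumbered or UIR 2), and Col4a4 averaged 246, 225 and 275 CPM and was not called. Col1a1 and Col3a1 were called higher in UIR at means of 1.72 and 1.52 CPM, below the 4.54 and 4.98 CPM that free RNA could give in the library where it was highest, and neither passed the filter on low counts once free RNA was subtracted. In UUO the PT class rested on 162 cells against 4864 in control, and of its 5 higher calls only that of Col18a1 was kept whichever library was left out. Col1a1 and Col1a2 stood at 1.40 to 6.52 and 1.33 to 8.69 CPM, where free RNA could give up to 9.63 and 13.6, gave no value once it was subtracted and lost the call without UUO unnumbered, Col1a2 also without UUO 2 (adjusted p up to 0.0643 and 0.163). Col16a1 (1.495) lost it without AN1, UUO unnumbered or UUO 1 (adjusted p up to 0.433).

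Most chains were low in immune cells. Macrophage-like cells held Col14a1 at 81.7, 128, 86.3, 77.8 and 137 CPM in control, 102, 108 and 98.1 in UIR and 70.9, 105 and 112 in UUO, with no call, and immune cells gave 56.8% of its UMIs in control, 39.2% in UIR and 44.4% in UUO. Of 11 chains 2 were higher in UIR, against 4.17% of all genes, and 3 in UUO, against 6.41%. They included Col3a1, with no UMI in control and 6.45, 7.26 and 4.59 CPM in UIR and 11.9, 7.89 and 9.20 in UUO. Its pooled levels of 5.95 CPM in UIR and 9.16 in UUO were at least 2.45-fold and 3.77-fold higher than the 2.43 CPM of 3 UMIs. The UIR call of Col3a1 was lost without any control library or UIR 1 (adjusted p up to 0.0756), that of Col18a1 without N2, AN1, AN2 or UIR 1 (0.0699), and the UUO call of Col1a1 without Ctrl, N1, AN1 or AN2 (0.084). For Col3a1 the level that free RNA could give was up to 5.24 CPM in UIR and 19.95 in UUO, and the called chains gave no value once it was subtracted. Stroma markers summed to 5.75 to 9.54 CPM in control macrophages and 31.8 to 52.2 in UUO. Col27a1 was lower in macrophages, at 7.43 to 31.0 CPM in control, 3.59 to 4.18 in UIR and 3.44 to 3.75 in UUO (-2.05 and -2.22), and the UIR call was lost without N1 (adjusted p = 0.0723). Empty droplets held Col27a1 at 4.22 to 15.1 CPM in control, 6.33 to 14.9 in UIR and 4.45 to 10.2 in UUO. A shallow cluster, with a median of 802 UMIs, held 94 of 360 macrophage-like cells in control, 2230 of 3540 in UIR and 2729 of 4199 in UUO. The part of either in this result was not tested. No chain was called in T/NK-like cells, where 5 were tested. Of all genes there 0.332% were higher and 0.311% lower in UIR, and 0.995% were higher and 1.58% lower in UUO. Col15a1 was seen in UUO neutrophil-like pools at 41.7 to 43.2 CPM, where free RNA could give up to 13.4, and the transmembrane chain Col23a1 in cDC1-like pools at a mean of 19.5 CPM in UIR and 12.5 in UUO. The other transmembrane chains were low, and Col13a1 had its highest level in the Plvap endothelial-like cluster, at 44.6, 47.9 and 39.1 CPM in control, UIR and UUO.

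**Figure D5:**
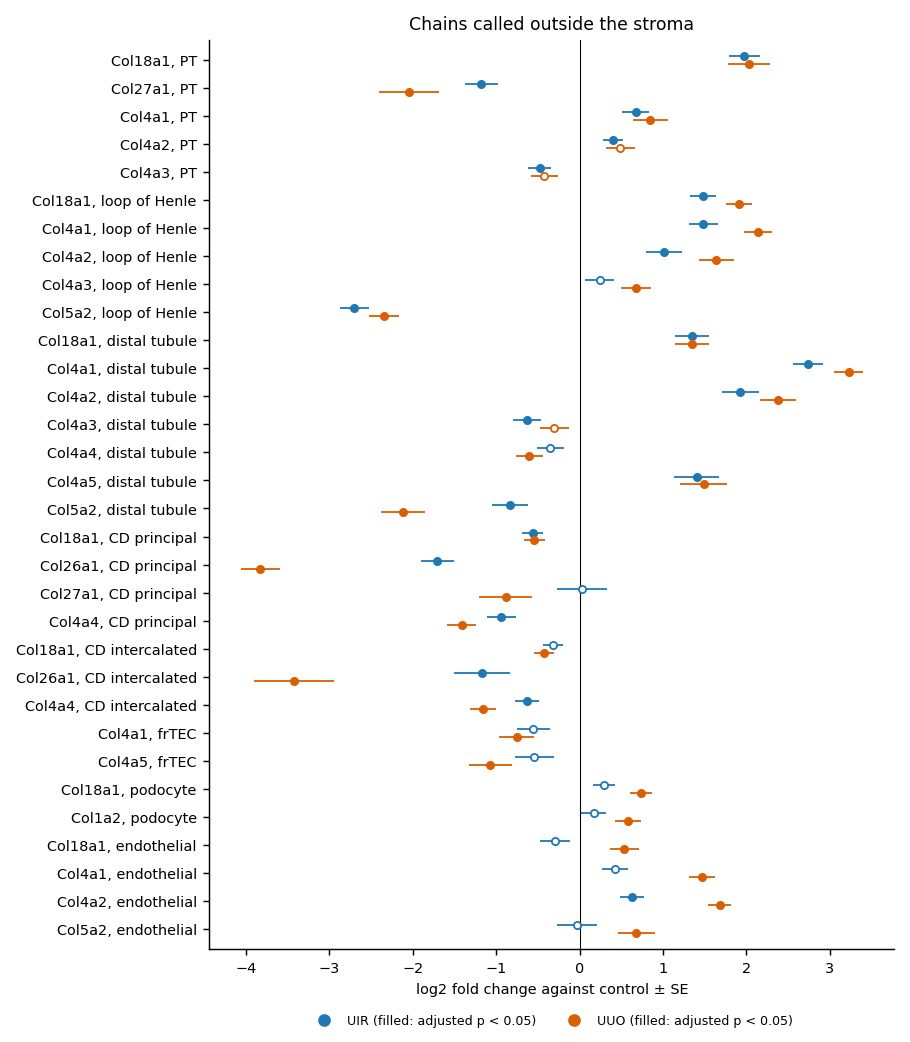
Log2 fold change against control, with standard error bars, for 32 called pairs of chain and class in 8 classes outside the stroma, with UIR and UUO side by side and filled points where adjusted p was below 0.05. Col4a1 reaches 3.23 in the distal tubule, and all pairs of the collecting duct called in UUO lie below 0, down to -3.83 for Col26a1 in principal cells.

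Chains that share a molecule kept steadier ratios in some classes than in others. The pooled ratio of Col4a1 to Col4a2 UMIs, which overlap at their starts, was 1.90, 1.59 and 1.59 in control, UIR and UUO endothelial-like cells and 2.12 and 2.26 in injured parietal epithelium-like cells, but 1.37, 1.89 and 1.95 in the loop of Henle and 1.24, 2.16 and 2.23 in the distal tubule. The ratio of Col4a3 to Col4a4 was 1.42, 1.43 and 1.32 in podocytes. In the tubule Col4a4 led, with Col4a3 to Col4a4 ratios of 0.835, 0.688 and 0.610 in PT, 0.471, 0.526 and 0.632 in the loop of Henle and 0.189, 0.280 and 0.456 in principal cells. The ratio of Col6a1 to Col6a2 was 1.66, 2.04 and 1.95 in the stroma. These ratios carry no test.

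The enzymes and carriers that fold, modify and trim collagen chains could be tested for 21 genes, and in the stroma 10 of 20 rose in UIR, against 8.21% of all genes, and 16 of 20 in UUO, against 10.8%. Adamts2, which removes the amino-terminal propeptide of procollagens I and III, averaged 18.7, 127 and 310 CPM in control, UIR and UUO (2.57 and 3.81, and 1.24 for UUO against UIR). Bmp1, which removes the carboxy-terminal propeptide, rose from 23.5 to 96.1 CPM in UUO (1.93) and Plod2, a lysyl hydroxylase, from 32.0 to 105 (1.71). Over the same non-overlapping classes as for the chains, 33 of 174 pairs of processing gene and class were higher and 12 lower in UIR. In UUO 43 of 167 were higher and 15 lower. The shares that were higher, 19.0% and 25.7%, lay above the 8.11% and 10.5% of all pairs of gene and class, and the shares that were lower, 6.9% and 8.98%, were close to the 6.75% and 9.42% of all pairs. Serpinh1, the collagen chaperone of the endoplasmic reticulum, rose also in cells with few fibrillar chains, from 44.2 to 129 and 131 CPM in distal tubule-like cells in UIR and UUO (1.13 and 1.09) and from 35.9 to 86.0 and 99.9 in principal-like cells (1.17 and 1.36). In principal-like cells Plod2 fell from 61.3 to 18.6 and 15.4 CPM (-1.78 and -1.97) and P4ha1, a prolyl hydroxylase, from 63.3 to 21.9 and 20.8 (-1.59 and -1.61). The distal tubule and principal classes were made of unlike clusters in control and injury, as given above. In the Slc12a3 and Calb1 cluster none of 6 processing genes was higher in UIR, against 0.659% of all genes. In the Aqp2 cluster none of 9 was higher, against 2.73%, and 2, P4ha1 and Plod2, were lower, against 3.81%. In podocyte-like cells, where Col4a3 and Col4a4 were not called, Plod2 rose from 426 to 712 and 879 CPM (0.742 and 1.021).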

How the data were processed

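The authors deposited raw UMI counts per gene and barcode for each of the 11 libraries, counted against mm10 with Cell Ranger, for which the submitters' processing notes give version 3.1.0 and the study's methods name another version. The deposited counts hold every barcode, and no cell annotation was used.

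Cells were called here as barcodes with UMIs over 0.1 of a reference depth (99th percentile, 3000 largest barcodes), or with at least 500 UMIs and a profile unlike empty droplets (ranks 45000 to 90000, 10000 simulations, false discovery rate 0.01). Cells with over 30% mitochondrial or 5% haemoglobin UMIs or under 200 genes were dropped, and the 7.5% of cells with the highest doublet scores were removed. Cells were scaled to 10000 counts and clustered with scanpy 1.11.5 (2000 variable genes, 40 components, 20 neighbours, Leiden resolution 1), and the tubule outside PT and the stroma were clustered again. Clusters were named from marker lists.

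UMIs were summed per library and class with at least 10 cells and fitted with edgeR 4.0.16 (TMM, filterByExpr, quasi-likelihood test, the 3 groups in 1 model, no covariate) where 2 libraries per group were available, and p-values were adjusted by Benjamini-Hochberg across every gene tested for that class and contrast. The fit was tested on simulated data. DESeq2 1.42.0 was an alternative, as were other filters, cell limits, free-RNA subtraction, a finer clustering, the N or the AN control libraries taken alone and each library left out. Free RNA was estimated as the empty-droplet profile of the library times a share set by markers of other classes. Counts are per molecule and 3′ captured, so CPM is not scaled by gene length, and intervals and floors cover counting error only (a floor is 3 UMIs). Values were printed for chains called with at least 20 CPM in either group, up to 8 per class and contrast, for collagens I, III, IV and VI, Col15a1 and Col18a1, for the 5 highest chains of a class, and for up to 4 processing genes per class and contrast. Other chains named, such as Col28a1, were chosen after their values were seen. The members, lists and comparisons were chosen with earlier results of these data known. Start windows come from RefSeq on GRCm38.p6 and gene positions from the GRCm38 annotation. Python 3.11.15 and R 4.3.3 were used.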

Additional observations from a re-analysis of the deposited data

Results flagged for a closer look

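Among 95 pairs of chain and class, 10 had a control library far from the other 4 relative to the group's range, a distance that chance alone reaches in about 1 in 20 groups. In the stroma the library was Ctrl for 5 chains: Col1a1 at 453.3 CPM with the others at 0 to 104.5, Col1a2 at 557 with the others at 51.8 to 188.1, Col3a1 at 514.9 with the others at 7.245 to 73.15, Col6a2 at 100.4 with the others at 0 to 21.73, and Col14a1 at 207.2 with the others at 0 to 26.12. Ctrl was also low for Col18a1 in principal cells, at 385.1 CPM below 452.3 to 476. The remaining 4 lay in other libraries. N1 was low for Col4a1 in the mixed principal and distal class at 47.77 CPM below 126.7 to 145.4, and N2 was low for Col4a4 in PT at 202.9 CPM below 249.5 to 263.6. AN1 was high for Col4a5 in the loop of Henle at 56.89 CPM above 26.49 to 33.32, and AN2 was high for Col12a1 in the Sox17 endothelial cluster at 113.6 CPM above 0 to 20.66.

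Several chains moved in opposite directions in different classes under the same contrast, with every library of a group on its side, and the difference between classes was not tested. In UIR the log2 fold changes of Col18a1 were 1.977 in PT, 1.349 in distal tubule, 1.479 in loop of Henle and 2.135 in stroma against -0.563 in principal cells and -1.067 in the Emcn and Kdr endothelial cluster. Col27a1 changed by 1.765 in stroma and -1.178 in PT, Col4a4 by 1.444 in stroma and -0.939 in principal cells, and Col5a2 by 3.137 in stroma and -2.7 in loop of Henle.

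In UUO Col18a1 changed by 2.032 in PT, 1.352 in distal tubule, 1.918 in loop of Henle, 1.966 in stroma, 0.738 in podocytes, 1.472 in the Sox17 cluster and 5.428 in the Plvap cluster, against -0.542 in principal cells and -0.936 in the Emcn and Kdr cluster. Col27a1 changed by 1.983 in stroma and -2.047 in PT, and Col4a4 by 1.763 in stroma against -1.159 in intercalated cells, where it turned to 1.555 at a mitochondrial limit of 15%, and -1.415 in principal cells. Col4a1 changed by 1.463, 1.229 and 1.339 in the Sox17, Plvap and Emcn and Kdr clusters, 1.472 in all endothelial cells, 3.228 in distal tubule and 2.142 in loop of Henle, against -0.751 in frTEC. Col4a5 changed by 1.489 in distal tubule and -1.068 in frTEC. Col5a2 changed by 4.082 in stroma, 1.432 in the Sox17 cluster and 0.681 in all endothelial cells, against -2.116 in distal tubule and -2.348 in loop of Henle.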

How the results depend on the processing

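Over 150 named fold changes and 22 alternatives, 2581 of 2898 values kept direction and call, 313 kept the direction and lost the call, and 4 turned, while 75 fold changes kept the call in every alternative that gave a value for them, which the replicate block did for 36. The named fold changes had all been called in the main fit, so an alternative could keep, lose or turn a call but not gain it. Fits that gave no value are not among the 2898. The 4 that turned did so at a mitochondrial limit of 15%: Col4a4 in intercalated cells to 2.082 in UIR and 1.555 in UUO, Col18a1 there to 1.308 in UUO, and Col27a1 in principal cells to 0.322 in UUO. That limit left 74 of 245 control intercalated cells, and the cause was not tested. The subtraction of free RNA left 11 fold changes without a value and ended 15 calls, namely Col1a1 (both UUO contrasts), Col1a2 and Col4a1 (against UIR) in Fibro 2, Col5a2 and Col18a1 in endothelial cells, Col1a2 in podocytes, Col4a1 (against UIR) and Col4a4 in the Plvap cluster, Col27a1 in principal cells and Col6a3 in stroma (against UIR) in UUO, and Col4a2 and Col4a3 in PT, Col4a1 in the Slc12a3 and Calb1 cluster and Col4a3 in the Aqp2 cluster in UIR.

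Counts of pairs moved as follows. The shares of all pairs in these fits are not given, so the counts do not set the chains against other genes. Without the filter on low counts, which tests more genes, 55 chain pairs were higher in UIR (31 as reported) and 71 in UUO (46), and 26 were higher (10) and 17 lower (4) in UUO than in UIR. At the 15% limit, which leaves fewer cells, 4 chain pairs were lower in UIR (13) and 6 in UUO (14), and 6 and 8 processing pairs were lower (12 and 15). With the finer clustering 1 was lower in UUO than in UIR. With fewer control libraries, the AN libraries alone left 8 chain pairs lower in UUO, and processing pairs numbered 16 (N alone) and 15 (AN alone) higher and 6 and 5 lower in UIR, and 24 and 22 higher in UUO, with 8 lower in UUO for AN. With 1 library left out, chain pairs numbered 25 to 35 higher and 11 to 15 lower in UIR, 38 to 46 higher and 11 to 16 lower in UUO, and 6 to 14 higher and 2 to 8 lower in UUO than in UIR, with 6 without UUO 2, 8 without UUO unnumbered and 2 without UIR 1 or UUO 1. Processing pairs numbered 23 to 33 and 8 to 13 in UIR and 31 to 42 and 13 to 16 in UUO.

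UIR and UUO libraries share the names unnumbered, 1 and 2. Same-numbered libraries deviated together by r above 0.1 in all 3 pairs in endothelial cells (0.116 to 0.537), stroma (0.11 to 0.304), T/NK cells (0.12 to 0.546) and loop of Henle (0.174 to 0.642), but not in macrophages (-0.073 to 0.38) or podocytes (0.03 to 0.225). The unnumbered UIR and UUO libraries correlated at 0.225 to 0.642 over these classes. Each of them correlated negatively with the numbered libraries of the other injury in every class. Deviations were taken from the mean of the 3 libraries of an injury and so cancel out. A positive correlation with 1 library therefore pulls those with the others below it, and the negative values are not separate evidence on pairing. No label says what a number marks, and in endothelial, T/NK, loop of Henle and macrophage cells UIR 1 and 2 each correlated more with the UUO library of the other number, so whether the numbers pair the libraries was not settled. With the replicate block 22 chain pairs were higher and 7 lower in UUO than in UIR, in place of 10 and 4, with no share of all pairs given for that fit. Not every library correlated best with its own number.

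Depth limits the control stroma, with 170 cells in 5 libraries, and UUO PT with 162. At a minimum of 20 cells or with finer clusters some pairs gave no value.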
